A study of Mus musculus with 27 samples.

Results

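The 7 long noncoding RNA genes below, known for abundant or nuclear transcripts in brain, were looked up by symbol among the 31053 genes counted in nuclei of the mouse hippocampus. Of the 7 genes, 6 were found (Malat1, Meg3, Neat1, Snhg11, Miat and Rmst). Rian, the neighbour of Meg3, was absent by symbol and by gene identifier and was not analysed here. The members were chosen by name. Single-nucleus RNA-seq counts unique molecular identifiers (UMIs), which mark single captured RNA molecules, and levels are given in CPM, the UMIs of a gene scaled to one common total of all UMIs of the same nuclei, so that 69130 CPM stand for 6.91% of them.

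The study asked how loss of the DNA sensor cGAS changes hippocampi of mice with tau pathology, and it counted UMIs in 27 libraries, each from 1 mouse. P301S tau mice carry mutant human tau under the mouse prion protein promoter, and they were crossed with mice lacking Cgas, and the methods describe the animals without the transgene as littermates. Without the P301S transgene there were 5 libraries labelled Cgas+/+, 2 labelled Cgas+/- and 2 labelled Cgas-/-. With the transgene there were 6 libraries labelled P301S Cgas+/+, 6 labelled P301S Cgas+/- and 6 labelled P301S Cgas-/-. The labels give genotype and sex but no age, no strain and no treatment. Both sexes were present in the 4 larger groups, and the libraries labelled Cgas+/- and Cgas-/- were all male.

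Long noncoding RNAs are transcribed and often spliced like messenger RNAs but are not translated into a known protein, and many stay in the nucleus. Malat1 lies in nuclear speckles, the stores of splicing factors, and Neat1 is the scaffold of the paraspeckles, bodies that hold back RNAs and proteins. Meg3 and Rian are made from the maternal copy of the imprinted Dlk1-Dio3 domain, and Snhg11 hosts small nucleolar RNAs. Miat binds splicing factors through repeated ACTAAC motifs, and Rmst binds the transcription factor Sox2 during neurogenesis.

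The deposited matrices held 241938 barcodes, of which 203414 were kept (5749 to 12511 per library), and the libraries held 46091490 to 79484316 UMIs. Barcodes found in more than 1 library made up 6.11% of all barcodes, and any pair of libraries shared 8 to 48. Clusters made without the members were named from marker genes into 13 classes, and excitatory and inhibitory nuclei were split again into 8 named subtypes. A class name below stands for nuclei that resemble that type by these markers ("-like"). The 5 clusters left unnamed held 5.7% of the kept nuclei. The file headers named software version 3.0.2 in 12 libraries, all male and 2 of each of the 6 groups, and version 3.1.0 in the other 15. Cgas itself, listed as Mb21d1, was measured over all kept nuclei, while the paper detected it mainly in microglia. Its level was low and did not separate the labels. Libraries labelled Cgas+/+ had 1.24 to 1.80 CPM and those labelled Cgas-/- 1.60 to 2.30 CPM. Values overlapped between those labelled P301S Cgas+/+ (1.37 to 3.58 CPM, mean 2.24) and P301S Cgas-/- (1.24 to 2.80 CPM, mean 1.91). Genotypes below are therefore those of the labels. Whether the counted 3′ part of Cgas lies outside the deleted part was not tested.

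The 6 genes lie on 5 chromosomes of the mouse genome (positions from GENCODE vM21, build GRCm38, the build mm10 named for these files). Malat1 (ENSMUSG00000092341, chr19:5795690-5802672, minus strand) and Neat1 (ENSMUSG00000092274, chr19:5824708-5845478, minus strand) are each annotated as 1 unbroken exonic block, and 22035 bases separate them. Meg3 (ENSMUSG00000021268, chr12:109541001-109571726, plus strand) holds Mir770 within its span and lies 32213 bases before Rian. Miat (ENSMUSG00000097767, chr5:112213228-112229395, minus strand) and Rmst (ENSMUSG00000112117, chr10:92071037-92165170, minus strand) are long intergenic RNA genes, and Rmst holds Mir135a-2 and Mir1251. Snhg11 (ENSMUSG00000044349, chr2:158375638-158386145, plus strand) carries the type protein_coding in that release. On the opposite strand, Meg3 overlaps Gm26906, Miat overlaps Gm26953 and Rmst overlaps Gm26700, and all 3 of these genes were counted too. Each gene of such a pair has its own count, and Gm26700 averaged at most 17.4 CPM, in ependymal cell-like nuclei, where Rmst had 1730 CPM. The strand setting of the counting is not given in the sources used here, and sharing of reads within a pair was not tested. Rian has the type processed_transcript, and 10 of 790 genes of that type were in the files, against 5459 of 5854 long intergenic RNA genes.

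The RNA ends bear on the counts, since the assay captures molecules at stretches of A. The sequences below are from GENCODE vM21 transcripts, and runs of 4 or more T or A are in capitals for the Malat1 transcript (bases 6584 to 6705 of 6983) and for the last 120 bases of the long Neat1 form. Both stretches hold T-rich runs before an A run that ends in the same letters, a pattern known to fold into a triple helix at the 3′ end of these RNAs. The last 60 bases of the short Neat1 form of 3004 bases hold the polyadenylation signal AATAAA in capitals. Counts of the 2 Neat1 forms were not separated in the files. The Malat1 run of 12 A was the only run of 10 or more A in that transcript, while a Meg3 transcript of 14548 bases held 6 such runs. The 2 Neat1 forms and a single transcript each of Snhg11, Miat and Rmst held 0. Of GENCODE transcripts of at least 5000 bases, 31.9% held such a run. The Rmst transcript had 2891 bases, while the gene has 7423 exonic bases and spans 94134. Other transcripts and introns, which the counting includes, were not searched for A runs.
Malat1 transcript: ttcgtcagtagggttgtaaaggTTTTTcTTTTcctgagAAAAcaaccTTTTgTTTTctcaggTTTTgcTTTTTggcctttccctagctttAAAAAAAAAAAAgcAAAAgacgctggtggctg
Neat1 long form: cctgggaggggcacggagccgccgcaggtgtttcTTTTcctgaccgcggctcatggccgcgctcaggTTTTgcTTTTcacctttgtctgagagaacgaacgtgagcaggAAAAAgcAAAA
Neat1 short form: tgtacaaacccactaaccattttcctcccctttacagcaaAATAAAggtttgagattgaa

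Miat is shown by the stretch of its transcript with most copies of ACTAAC, the motif through which it binds splicing factors. The 120 bases from 5510 to 5629 hold 4 copies, in capitals, and the whole transcript of 9163 bases holds 11. That is 1.2 copies per kilobase, and 2 of 7040 GENCODE transcripts of at least 5000 bases held more per kilobase (median 0.0912).
Miat transcript: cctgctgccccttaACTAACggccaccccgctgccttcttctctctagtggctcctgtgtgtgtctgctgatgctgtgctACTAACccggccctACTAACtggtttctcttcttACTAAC

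Promoters are shown for Meg3 and Snhg11, whose levels over cell types were alike (below). The windows run from 250 bases before to 50 bases after the start (RefSeq, build GRCm38), at chr12:109540746-109541045 and chr2:158375463-158375762, both on the plus strand. Capitals mark TGACGTCA, TATAAA or CCAAT on either strand, and the 2 copies of TATAAA in the Meg3 window overlap each other. The Meg3 window held TGACGTCA, the full cAMP response element, which 1.79% of 32851 promoters held, as well as TATAAA (13.6% of promoters) and CCAAT (37.4%). The Snhg11 window held none of these letters. A second Meg3 start and the promoters of Malat1, Miat and Rian held none either, and the table had no promoter of Neat1 or Rmst.
Meg3 promoter: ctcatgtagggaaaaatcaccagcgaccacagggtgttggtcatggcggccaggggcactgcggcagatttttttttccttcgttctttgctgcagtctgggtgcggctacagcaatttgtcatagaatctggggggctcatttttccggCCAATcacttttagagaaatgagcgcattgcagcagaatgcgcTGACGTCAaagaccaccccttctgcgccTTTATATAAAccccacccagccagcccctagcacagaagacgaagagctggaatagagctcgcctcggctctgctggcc
Snhg11 promoter: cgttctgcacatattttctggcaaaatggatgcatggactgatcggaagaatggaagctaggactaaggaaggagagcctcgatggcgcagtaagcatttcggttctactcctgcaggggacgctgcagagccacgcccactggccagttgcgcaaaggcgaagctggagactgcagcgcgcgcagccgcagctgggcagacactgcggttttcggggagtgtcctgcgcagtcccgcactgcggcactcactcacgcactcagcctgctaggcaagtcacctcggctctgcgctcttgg

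Malat1 held more UMIs than any other gene in the kept nuclei of the hippocampus, at 23810 ± 4738 CPM (SD, n = 27 libraries). Meg3 ranked 4th of the 27149 genes with a UMI at 6280 ± 1348 CPM, and Snhg11 ranked 36th at 2255 ± 528 CPM. Miat averaged 250 ± 52.3 CPM, Neat1 210.5 ± 109.5 CPM and Rmst 153 ± 42.9 CPM. Divided by exonic length, mean levels were 3410 CPM per kilobase for Malat1, 347 for Meg3, 265 for Snhg11, 26.9 for Miat, 20.6 for Rmst and 10.1 for Neat1. Divided by the whole span with introns, which the counting on pre-mRNA includes, Rmst had 1.62 CPM per kilobase and fell below Neat1. A UMI marks a single captured molecule whatever its length, so the values per kilobase are not levels of captured molecules. For Neat1 the divisor was the long form of 20771 bases, although counts of its forms were not separated. The order per kilobase of the 3 less abundant genes thus depended on the length used.

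Levels across cell types were compared within libraries. For each gene, classes and subtypes were put in the order of their mean CPM, and neighbours in that order were tested by a two-sided paired permutation test of log2(CPM + 1), exact where fewer than 10 libraries held both, with Benjamini-Hochberg adjustment over 114 neighbouring pairs. Of these pairs, 51 differed at adjusted p under 0.05, and the smallest p that the 100000 sign flips can give is 1e-05. By class, the plot of levels shows Meg3, Snhg11 and Miat highest in neurons, Neat1 lowest in them, and Malat1 high throughout. The means of single neuron subtypes lay below those of some classes outside neurons, a comparison that was not tested. Dentate granule-like nuclei had 2304 CPM of Meg3 (T cell-like 3494, n = 4 libraries) and 672 CPM of Snhg11 (fibroblast-like 1320, n = 10). In T cell-like nuclei Meg3 was at 50.7% of the neuron level, and the neuron-restricted genes described below were at 6.02% to 48.8%. The part of RNA from neurons in the T cell-like value was not tested. Pvalb interneuron-like nuclei had 45.2 CPM of Miat (oligodendrocyte progenitor-like 77.5). The alternatives tried gave 39 of 103 to 56 of 108 pairs.

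**Figure D1:**
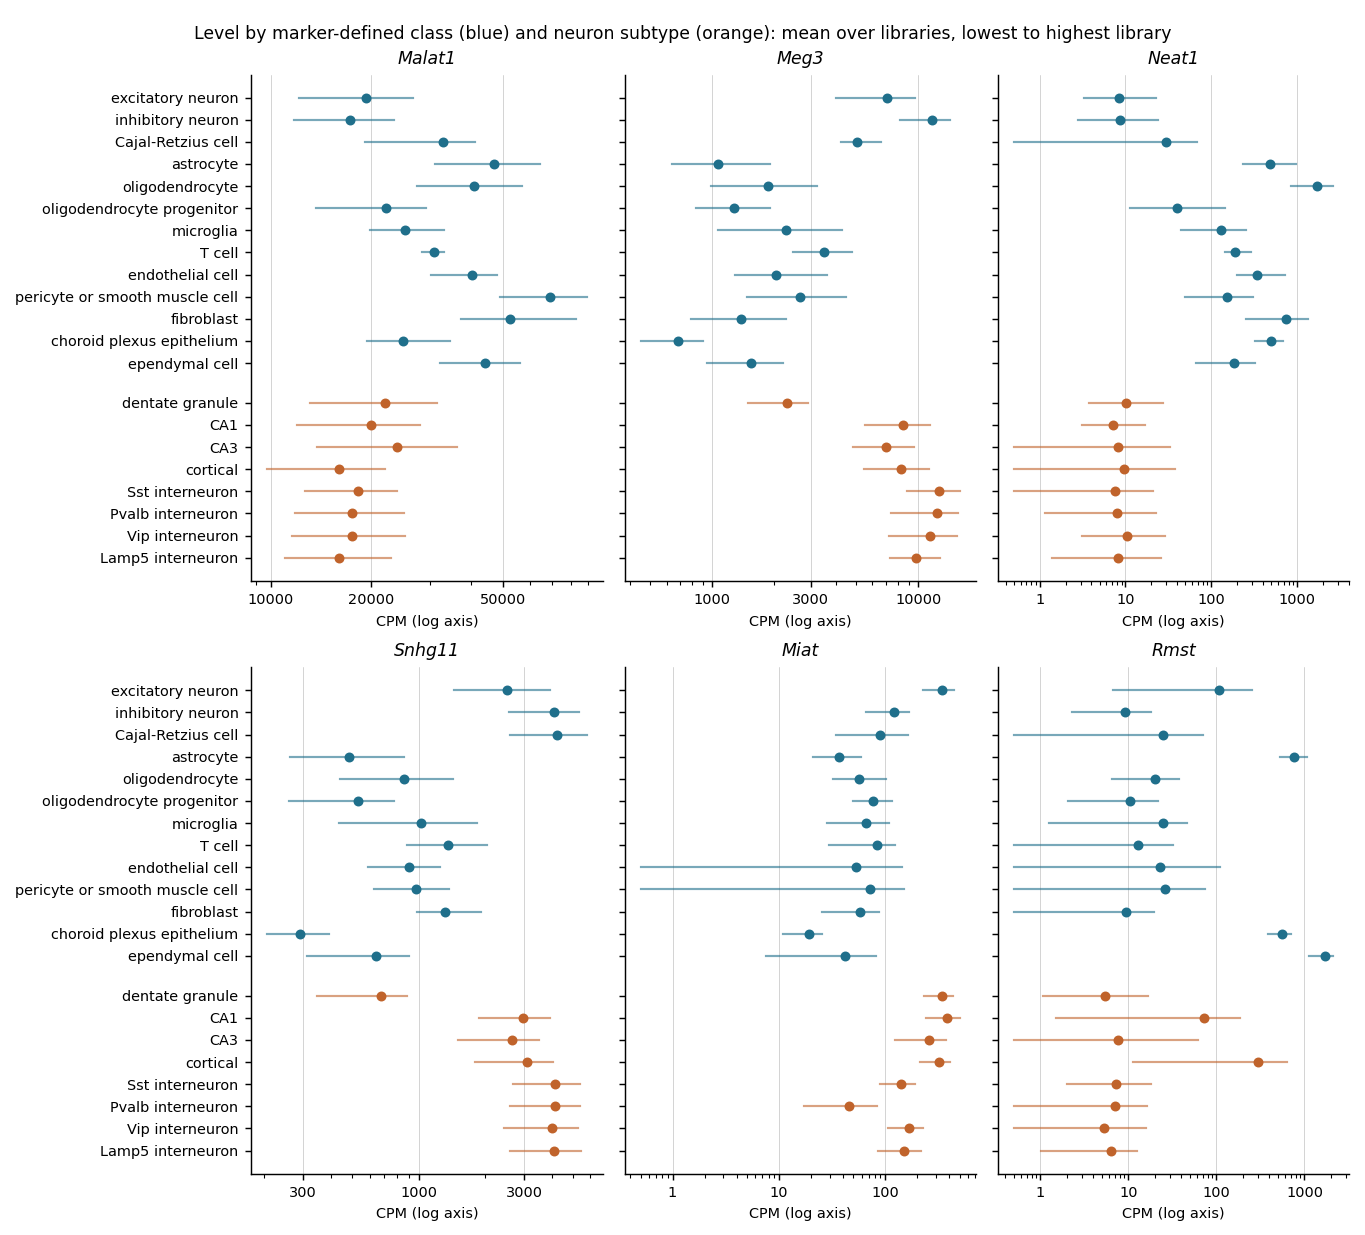
Level of each gene by class (blue) and neuron subtype (orange), in CPM on a log axis. Points are means over libraries and lines run from the lowest to the highest library, with values under 0.5 CPM drawn at 0.5. Neat1 averaged 1700 CPM in oligodendrocyte-like nuclei and 8.44 CPM in excitatory neuron-like nuclei.

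Malat1, the speckle RNA, averaged at least 17240 CPM in every class. Its highest mean was 69130 ± 14240 CPM in pericyte or smooth muscle cell-like nuclei (SD, n = 21 libraries), or 6.91% of their UMIs, and its lowest class mean was 17240 ± 3322 CPM in inhibitory neuron-like nuclei (n = 27). Astrocyte-like nuclei had 46850 ± 9449 CPM, oligodendrocyte-like nuclei 40680 ± 7353 CPM and microglia-like nuclei 25220 ± 3993 CPM. The means of the excitatory and inhibitory neuron classes lay below that of every glial and vascular class. Cajal-Retzius cell-like nuclei, which are also neurons, had 32900 ± 7152 CPM (n = 11). Oligodendrocyte progenitor-like nuclei were above excitatory ones in 26 of 27 libraries (log2 difference 0.21 ± 0.12, SD, permutation test, adjusted p = 6.71e-05). Excitatory nuclei were above inhibitory ones in 26 of 27 libraries (0.16 ± 0.11). From pericytes through fibroblasts, astrocytes and ependymal cells to oligodendrocytes, no neighbouring pair passed the threshold, with adjusted p between 0.0514 and 0.178 (exact or permutation test). The share of nuclei with a Malat1 UMI rounded to 100% in every class.

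Among neuron subtypes, Malat1 ran from 23990 ± 4271 CPM in CA3-like nuclei (n = 23) and 21960 ± 4669 CPM in dentate granule-like nuclei (n = 26) to 16040 ± 3224 CPM in cortical-like and 16020 ± 3029 CPM in Lamp5 interneuron-like nuclei (n = 27). CA3-like nuclei were above dentate granule-like ones in 20 of 22 libraries, with a log2 difference of 0.16. Pvalb and Vip interneuron-like nuclei could not be told apart, nor could cortical and Lamp5 interneuron-like nuclei (adjusted p = 0.793 and 0.993, permutation test). Across single nuclei the range was wide, and the middle 80% of astrocyte-like nuclei held from 2.89% to 6.93% of their UMIs in Malat1.

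Neat1, the paraspeckle scaffold, was highest in oligodendrocytes and lowest in neurons. Oligodendrocyte-like nuclei had 1700 ± 497 CPM (SD, n = 27), from 860 CPM in the lowest to 2666 CPM in the highest library. Fibroblast-like nuclei had 738 ± 335 CPM (n = 10), choroid plexus epithelium-like nuclei 500 ± 124 CPM (n = 9) and astrocyte-like nuclei 484 ± 202.3 CPM (n = 27). The oligodendrocyte level was above the fibroblast level in 10 of 10 libraries, with a log2 difference of 1.32 ± 0.65 (permutation test, adjusted p = 0.00642). Microglia-like nuclei averaged 130.5 ± 60.5 CPM and oligodendrocyte progenitor-like nuclei 40.0 ± 32.8 CPM. No progenitor library, at most 145.7 CPM, reached the lowest oligodendrocyte library. Microglia were above progenitors in 27 of 27 libraries, by 1.88 ± 0.49 (log2, adjusted p = 6.71e-05).

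In neurons Neat1 was low. Excitatory neuron-like nuclei had 8.44 ± 4.71 CPM and inhibitory ones 8.66 ± 5.19 CPM, and the 8 neuron subtypes lay between 7.14 and 10.3 CPM. None of the 7 neighbouring pairs of subtypes passed the test, and neither did the 2 neuron classes (log2 difference 0.02 ± 0.33, permutation test, adjusted p = 0.913). After thinning each nucleus to 1000 UMIs, 72.0% of oligodendrocyte-like nuclei held a Neat1 UMI against 0.926% of excitatory neuron-like nuclei. Before thinning the shares were 84.7% (median 1910 UMIs per nucleus) and 7.25% (median 9070 UMIs). Over the 8 neuron subtypes the thinned share ran from 0.765% to 1.13%.

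Meg3 was highest in inhibitory neurons. Inhibitory neuron-like nuclei had 11730 ± 1747 CPM (SD, n = 27) and excitatory ones 7077 ± 1524 CPM, and the inhibitory level was higher in 27 of 27 libraries (log2 difference 0.75 ± 0.24, permutation test, adjusted p = 6.71e-05). Sst interneuron-like nuclei led with 12670 ± 2070 CPM, followed by Pvalb, Vip and Lamp5 interneuron-like nuclei at 12300, 11430 and 9714 CPM. CA1-like and cortical-like nuclei had 8459 ± 1454 and 8228 ± 1449 CPM and could not be told apart (adjusted p = 0.328). Dentate granule-like nuclei stood far below all other neuron subtypes at 2304 ± 403 CPM, and their highest library, at 2924 CPM, was below the lowest CA3-like library, at 4818 CPM. CA3-like nuclei were above dentate granule-like nuclei in 22 of 22 libraries by 1.56 ± 0.26 on the log2 scale.

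Snhg11, the snoRNA host gene, followed almost the same order as Meg3. Inhibitory neuron-like nuclei had 4120 ± 853 CPM, Cajal-Retzius cell-like nuclei 4249 ± 1095 CPM (n = 11) and excitatory neuron-like nuclei 2517 ± 620 CPM. The 4 interneuron subtypes lay within 4024 to 4167 CPM. Cortical-like, CA1-like and CA3-like nuclei had 3088, 2963 and 2638 CPM, and dentate granule-like nuclei had 672 ± 132.5 CPM. The step from CA3 to dentate granule was again the largest among the subtypes, at 1.93 ± 0.21 (log2) in 22 of 22 libraries. Thinned to 1000 UMIs, 46.6% of dentate granule-like nuclei held a Snhg11 UMI against 92.6% of CA1-like nuclei. Over the 21 classes and subtypes, Pearson's r of mean log2(CPM + 1) between Meg3 and Snhg11 was 0.95, a description over points that share libraries.

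The ratio of Meg3 to Snhg11 UMIs set the 2 genes apart. It was 2.85 ± 0.39 in excitatory and 2.91 ± 0.43 in inhibitory neuron-like nuclei (SD, n = 27), 3.52 ± 0.74 in dentate granule-like nuclei and 2.42 ± 0.38 in Lamp5 interneuron-like nuclei. In fibroblast-like nuclei it was 1.07 ± 0.42 (n = 10) and in Cajal-Retzius cell-like nuclei 1.28 ± 0.43 (n = 11). In astrocyte-, oligodendrocyte- and microglia-like nuclei it lay at 2.21, 2.19 and 2.26.

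Miat, the RNA with the ACTAAC repeats shown above, was highest in excitatory neurons. Excitatory neuron-like nuclei had 340.5 ± 59.5 CPM and inhibitory ones 119.7 ± 24.6 CPM, with a log2 difference of 1.51 ± 0.18 in 27 of 27 libraries (permutation test, adjusted p = 6.71e-05). CA1-like nuclei led with 385 ± 72.0 CPM, followed by dentate granule-like nuclei at 339 ± 57.6 CPM, cortical-like nuclei at 322 ± 56.3 CPM and CA3-like nuclei at 259 ± 68.9 CPM. Dentate granule-like nuclei, low in Meg3 and Snhg11, came after CA1-like nuclei alone in Miat. Among interneurons, Vip, Lamp5 and Sst interneuron-like nuclei had 166, 149.5 and 139 CPM. Pvalb interneuron-like nuclei had 45.2 ± 15.1 CPM, below Sst interneuron-like nuclei in 26 of 26 libraries by 1.65 ± 0.37 (log2), and no Pvalb library, at most 84.3 CPM, reached the lowest Sst library, at 88.6 CPM. Outside neurons Miat lay between 19.1 CPM in choroid plexus-like and 84.1 CPM in T cell-like nuclei.

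Rmst, the partner of Sox2, was highest in ependymal and astroglial nuclei. Ependymal cell-like nuclei had 1730 ± 326 CPM (n = 14), astrocyte-like nuclei 753 ± 155 CPM (n = 27) and choroid plexus epithelium-like nuclei 554 ± 98.1 CPM (n = 9). The ependymal level was above the astrocyte level in 14 of 14 libraries by 1.24 ± 0.40 (log2, permutation test, adjusted p = 0.000638). Oligodendrocyte progenitor-like nuclei had 10.4 ± 4.55 CPM and inhibitory neuron-like nuclei 9.14 ± 3.83 CPM. After thinning to 1000 UMIs, 68.4% of ependymal-like and 46.1% of astrocyte-like nuclei held an Rmst UMI, against 1.03% of oligodendrocyte progenitor-like nuclei.

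Among neurons Rmst was patchy. Cortical-like nuclei had 299 ± 149 CPM and CA1-like nuclei 71.8 ± 55.4 CPM, with a log2 difference of 2.50 ± 1.65 in 27 of 27 libraries. CA3-like nuclei had 7.63 ± 13.5 CPM and dentate granule-like nuclei 5.42 ± 3.64 CPM, and no neighbouring pair among the 6 lowest subtypes passed the test. By median over libraries the order was reversed, with 2.19 CPM in CA3-like nuclei (highest library 61.1 CPM) and 4.70 CPM in dentate granule-like nuclei. Subclusters differed widely, and a cortical-like subcluster of 3131 nuclei led by Cobll1, Lpar1, Rmst itself and Foxp2 had 796 ± 199 CPM (n = 22 libraries). A CA1-like subcluster of 2219 nuclei led by Cdc14a, Unc13c and Adamts2 had 603 ± 139 CPM (n = 21), while another CA1-like subcluster of 2409 nuclei had 2.85 ± 1.99 CPM (n = 18). The Rmst level of all excitatory neuron-like nuclei, 108 ± 63.0 CPM, ranged from 6.66 to 251.3 CPM between libraries. The dentate granule share of excitatory nuclei ranged from 0.689% to 59.3% over the same libraries, and its part in that range was not tested.

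The level of the neuronal transcripts outside neurons was set beside a list of 8 protein-coding genes known from neurons (Slc17a7, Camk2a, Rbfox3, Snap25, Syt1, Gad1, Gad2 and Nrgn), called neuron-restricted here. Gad1 did not keep to that name, with a level in oligodendrocyte progenitor-like nuclei above that of neurons (154.6%). Meg3 in astrocyte-like nuclei was 14.2% ± 4.49 of the neuron level (SD, n = 27), and the 8 genes ranged from 1.91% to 18.2% with a median of 12.6% (Gad1 highest, then Snap25 at 16.3%). In oligodendrocyte-like nuclei Meg3 was at 25.0% and Snhg11 at 32.6%, and the 8 genes ranged from 3.30% to 28.8%. In microglia-like nuclei Meg3 was at 30.7% and Snhg11 at 38.8%, and the genes ranged from 4.09% to 34.3%. Meg3 and Miat in these 3 classes therefore lay within the range of the neuron-restricted genes, while Snhg11 lay above it, narrowly so in astrocyte-like nuclei (18.3%). The differences from these genes were not tested.

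**Figure D2:**
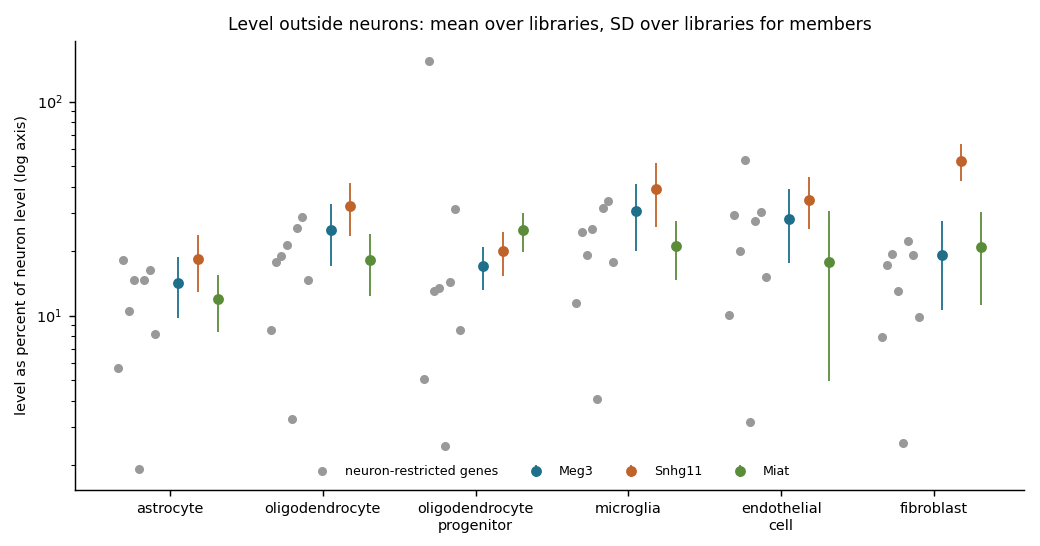
Level outside neurons as a percent of the level in neuron-like nuclei (log axis), for Meg3, Snhg11 and Miat (mean and SD over libraries) and for 8 neuron-restricted genes (grey, means over libraries). In fibroblast-like nuclei Snhg11 is at 52.9% while the highest neuron-restricted gene is at 22.3%.

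In fibroblast-like nuclei, Snhg11 stood at 52.9% ± 10.3 of the neuron level (n = 10 libraries), against 19.1% for Meg3, 20.9% for Miat and at most 22.3% for the neuron-restricted genes. In oligodendrocyte progenitor-like nuclei Meg3, Snhg11 and Miat were at 17.03%, 19.97% and 25.05%. The neuron-restricted genes ranged there from 2.47% to 154.6% (Gad1 highest, then Snap25 at 31.4%), so Snhg11 lay within their range. It also did so in endothelial cell-like nuclei (34.8%, genes up to 53.4%). The same held in pericyte or smooth muscle cell-like (37.0%, up to 37.6%) and ependymal cell-like nuclei (26.5%, up to 30.8%). In T cell-like nuclei Snhg11 was at 64.8%, above the highest gene at 48.8% (n = 4). In choroid plexus-like nuclei Meg3 was at 9.51% and Snhg11 at 12.3%, beside 1.24% to 11.8% for the neuron-restricted genes. Cajal-Retzius cell-like nuclei, which are neurons, had 76.7% for Meg3 and 179% for Snhg11.

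Levels also moved with the depth of single nuclei. Within each library and class, nuclei were cut into tertiles by the UMIs of all other genes, and the deepest tertile was compared with the shallowest by a two-sided paired permutation test over 27 libraries, with adjustment over 30 gene and class pairs. CPM here were taken over the UMIs without the 6 members. In oligodendrocyte-like nuclei (median 1360 UMIs in the shallow and 2254 in the deep tertile), Meg3 fell from 2409 ± 675 to 1644 ± 500 CPM and was lower in the deep tertile in 27 of 27 libraries (log2 difference -0.56 ± 0.13, adjusted p = 2e-05). Snhg11 fell there from 1103 to 752 CPM, also in 27 of 27 libraries. Astrocyte-like nuclei gave -0.54 ± 0.17 for Meg3 and -0.56 ± 0.16 for Snhg11, each in 27 of 27 libraries, and microglia-like nuclei -0.30 and -0.39. In excitatory neuron-like nuclei Meg3 was higher in the deep tertile in 25 of 27 libraries (0.35 ± 0.33), and in inhibitory ones in 24 of 27 (0.15 ± 0.12).

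Neat1 went the other way in the classes where it was high. In oligodendrocyte-like nuclei it was 1599 ± 495 CPM in the shallow and 1877 ± 540 CPM in the deep tertile, higher in 26 of 27 libraries (log2 difference 0.24 ± 0.18, permutation test, adjusted p = 2e-05). Astrocyte-like nuclei gave 0.27 ± 0.35 in 22 of 27 libraries. In excitatory neuron-like nuclei Neat1 was lower in the deep tertile in 26 of 27 libraries, at 7.14 against 12.3 CPM. Malat1 differed in all 5 classes (adjusted p from 2e-05 to 3.53e-05, permutation test), by 0.32 ± 0.23 in inhibitory neuron-like nuclei, -0.15 ± 0.07 in microglia-like nuclei and from 0.08 to 0.11 in the other 3 classes.

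**Figure D3:**
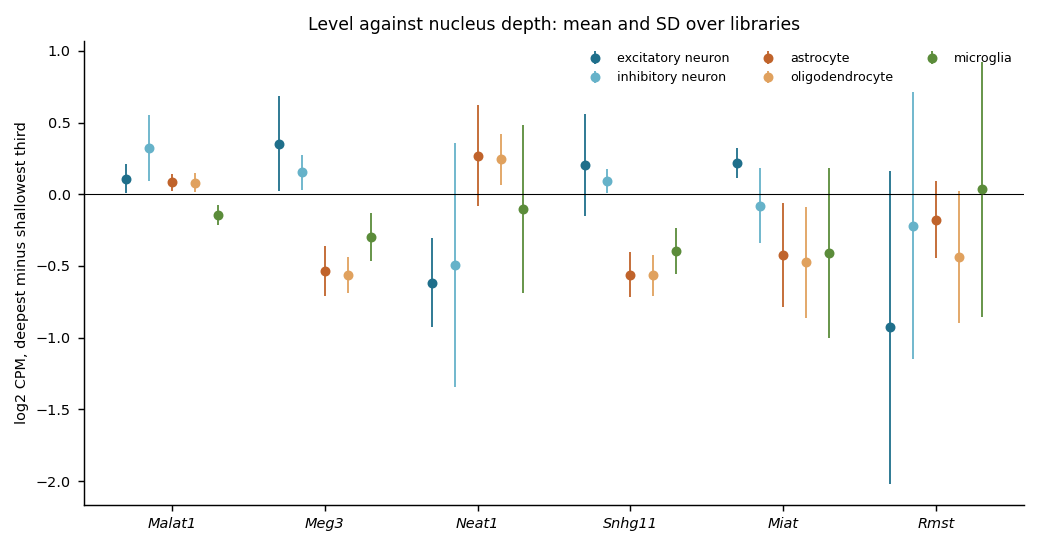
Difference in log2 CPM between the deepest and the shallowest tertile of nuclei, by gene and class, as mean and SD over 27 libraries. Meg3 and Snhg11 lie below 0 in the glial classes and above 0 in the 2 neuron classes, while dentate granule-like nuclei alone, not plotted, gave -0.15 and -0.64.

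The excitatory class mixes subtypes of different depth, so tertiles were also cut within 2 subtypes, a step added after the class values were seen. In dentate granule-like nuclei (25 libraries), Snhg11 was 899.5 ± 191 CPM in the shallow and 576 ± 113 CPM in the deep tertile and lower in 25 of 25 libraries, while Miat was 278 ± 54.0 and 391.5 ± 66.3 CPM and higher in 25 of 25 (log2 difference 0.50 ± 0.16, permutation test, adjusted p = 3e-05). Meg3 went against the excitatory class there, at 2530 ± 437 CPM in the shallow and 2285 ± 424 CPM in the deep tertile, and was higher in the deep tertile in 3 of 25 libraries (log2 difference -0.15 ± 0.16, permutation test, adjusted p = 0.00024). In CA1-like nuclei Meg3 was higher in the deep tertile in 21 of 27 libraries (0.15 ± 0.17), and Snhg11 and Miat differed by 0.02 ± 0.12 and 0.01 ± 0.15. There Rmst was 111 ± 94.0 CPM in shallow and 41.6 ± 37.7 CPM in deep nuclei, with a log2 difference of -1.27 ± 1.38. The CA1-like subclusters differed widely in Rmst (above), and their part in this difference was not tested.

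Libraries of the 2 header software versions stood apart in Malat1. In excitatory neuron-like nuclei the 12 libraries of version 3.0.2 had 19000 to 26670 CPM (mean 23090 ± 2065) and the 15 of version 3.1.0 had 12100 to 19780 CPM (mean 16220 ± 1969). Astrocyte-like nuclei had 48070 to 64320 CPM against 31140 to 45170 CPM, with no overlap. The 4 male libraries of version 3.1.0 had 12100 to 17070 CPM in excitatory neuron-like nuclei, below all 12 male libraries of version 3.0.2. Meg3 in excitatory neuron-like nuclei averaged 7073 and 7081 CPM in the 2 sets. Median UMIs per excitatory nucleus, counted without the members, were 7378 to 9535 and 7501 to 11260. What else differed between the sets was not tested.

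Across libraries, none of 18 correlations of a member's level with the median depth of its class passed the adjusted threshold on Pearson's r. The lowest p on Pearson's r was that of Neat1 in oligodendrocyte-like nuclei, with r = 0.51 (permutation p = 0.0068, adjusted 0.122), Spearman's rho 0.41 (permutation p = 0.0322, adjusted 0.182) and r = 0.36 without the 2 libraries farthest from the median depth. Within the 12 libraries of version 3.0.2 r was 0.58, and within the other 15 it was 0.86. The lowest p on Spearman's rho was that of Malat1 in excitatory neuron-like nuclei, with r = -0.44 (permutation p = 0.021, adjusted 0.189), Spearman's rho -0.55 (permutation p = 0.00351, adjusted 0.0632) and r = -0.42 without the 2 libraries farthest from the median depth. Within the header sets r was -0.68 (version 3.0.2) and -0.06 (version 3.1.0). Over the 18 P301S libraries alone this relation passed on the rank measure (rho = -0.71, permutation test, adjusted p = 0.0243) and not on Pearson's r (r = -0.65, adjusted p = 0.0664). The neighbours Malat1 and Neat1 were correlated over 27 libraries in oligodendrocyte-like nuclei (r = 0.46, permutation p = 0.016, adjusted over 3 classes 0.0479, rho = 0.48, permutation p = 0.0107, adjusted 0.0322, and r = 0.48 without the 2 farthest libraries). Within the header sets r was -0.38 (version 3.0.2) and 0.45 (version 3.1.0), so the direction held in 1 of the 2 sets. Over the 18 P301S libraries alone the relation did not pass (r = 0.46, permutation test, adjusted p = 0.11). In excitatory neuron-like and dentate granule-like nuclei r was -0.22 and -0.02 (permutation p = 0.267 and 0.915).

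Genes of like pattern were ranked by Pearson's r of mean log2(CPM + 1) over the 21 classes and subtypes, among 14445 genes, and are given as a description. For Meg3 they included A230006K03Rik (r = 0.96) and Mirg (0.93), a noncoding RNA of the same imprinted domain at chr12:109729764-109749460. For Snhg11 they were Cntnap2 (0.94), Elavl2 (0.90) and Stmn2 (0.90), all genes of neurons. For Miat they were Syt5 (0.94), Celf5 (0.92) and Sprn (0.92). For Rmst the first was Gm26700 (0.95), which overlaps it on the opposite strand at chr10:92162103-92164690, followed by Mamdc2 (0.89) and Ppp1r42 (0.88). Neat1 was followed by Nde1 (0.95), Hadh (0.95) and the splicing kinase Clk4 (0.94), and Malat1 by Ilk (0.90), Emsy (0.88) and Hnrnpdl (0.88).

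The P301S transgene was tested in mice with intact Cgas, 6 libraries labelled P301S Cgas+/+ against 5 labelled Cgas+/+. UMIs were summed per library in 6 classes and 3 excitatory subtypes and tested with edgeR's quasi-likelihood test with sex as covariate, in one fit per unit of the 23 libraries of 4 groups. Fewer libraries held enough nuclei in dentate granule-like nuclei (5 labelled P301S Cgas-/-) and in CA3-like nuclei (4 labelled P301S Cgas-/- and 5 of each other group). Over this contrast and the 2 Cgas contrasts below, none of 162 tests of the 6 members passed an adjusted p under 0.05. For the tau contrast, few genes of any kind passed, namely 0.0232% of 17243 genes in excitatory neuron-like nuclei, 0.0078% in inhibitory, 0.00758% in astrocyte-, 0.00798% in oligodendrocyte-, 0.0109% in oligodendrocyte progenitor- and 0% in microglia-like nuclei. In dentate granule-, CA1- and CA3-like nuclei the shares were 0.00767%, 0.0214% and 0.0109%. At an unadjusted p under 0.05 the members gave 10 of 54 tests, 4 upward, all of Neat1, and 6 downward, beside 2.25% to 15.7% of all genes over the 9 units. The 2 Cgas contrasts gave 0 of 54 each, beside 2.55% to 13.4% of all genes for deletion and 2.18% to 11.7% for loss of 1 copy, and DESeq2 called 0 of the 6 members in each unit of all 3 contrasts. With the header software version as a further covariate, edgeR also called 0 of the members in each unit and contrast, and Neat1 in microglia-like nuclei gave 0.95 ± 0.34 with tau (adjusted p = 0.172).

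**Figure D4:**
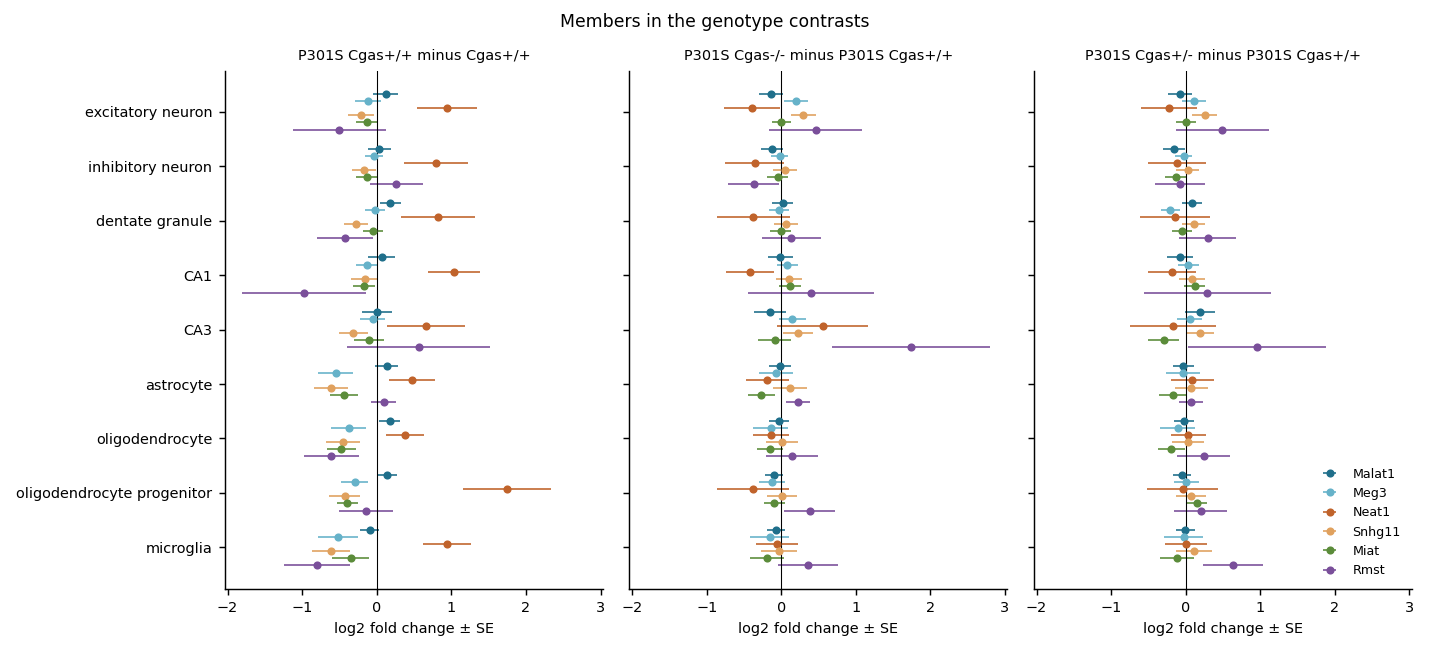
Log2 fold change with SE of each gene (colour) in the 3 genotype contrasts, by class and subtype, from edgeR. Neat1 lies above 0 in all 9 units of the tau contrast, with 1.74 in oligodendrocyte progenitor-like nuclei, and no value passed an adjusted p under 0.05. The units come from the same mice, and the subtypes are parts of the excitatory class.

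Neat1 had the highest fold changes with tau. In oligodendrocyte progenitor-like nuclei the 5 libraries labelled Cgas+/+ had 20.5, 22.24, 16.92, 15.41 and 11.45 CPM, and the 6 labelled P301S Cgas+/+ ran from 21.55 over a median of 45.93 to 104.1 CPM. Only the lowest P301S library lay within the range of the others. The log2 fold change was 1.74 ± 0.59 (SE), with an unadjusted p of 0.00823 and an adjusted p of 0.41 (edgeR), where 8.75% of all genes had an unadjusted p under 0.05. Within the header sets the difference was 1.14 (version 3.0.2) and 1.63 (version 3.1.0). All 18 libraries with the transgene, whatever their Cgas label, had 19.8 to 145.7 CPM and the 9 without it 11.45 to 24.53 CPM. These pooled sets were not balanced in header version or sex, and their ranges are not adjusted for either. Version 3.1.0 named 12 of the 18, but none of the libraries labelled Cgas+/- or Cgas-/-, which were all male. Of 8 oligodendrocyte marker genes, 7 were tested in these progenitor-like nuclei and all 7 were higher with tau at an unadjusted p under 0.05. Their summed level was 166.4 to 318.8 CPM in libraries labelled Cgas+/+ and 207 to 2048 CPM in those labelled P301S Cgas+/+, none of the 8 was at 0, and their part in the Neat1 difference was not tested.

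In microglia-like nuclei Neat1 was 84.7, 102.4, 103.1, 58.58 and 67.34 CPM in libraries labelled Cgas+/+ and 74.57 to 257.6 CPM, with a median of 134.7 CPM, in those labelled P301S Cgas+/+. Of these P301S libraries 5 of 6 were above all Cgas+/+ libraries. The log2 fold change was 0.94 ± 0.33 (unadjusted p = 0.00892, adjusted p = 0.163, edgeR), where 15.7% of all genes had an unadjusted p under 0.05, and within the header sets the difference was 0.48 and 1.02. Without P301S Cgas+/+ replicate 2, the lowest of its group, the adjusted p was 0.0437, and with no filter on low counts 3 members passed, Neat1, Snhg11 and Meg3, in a fit that called 801 of 21537 genes. Of the oligodendrocyte markers, 1 of 7 tested was higher here at an unadjusted p, and their summed level was 248.8 to 497.4 against 266.1 to 608.7 CPM. Median UMIs per microglia-like nucleus were 1206 to 1505 and 1440 to 2849.

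In CA1-like nuclei Neat1 was 3.19 to 6.88 CPM in libraries labelled Cgas+/+ and 3.84 to 17.1 CPM in those labelled P301S Cgas+/+ (log2 fold change 1.04 ± 0.35, unadjusted p = 0.00689, adjusted p = 1, edgeR), where 2.63% of genes had an unadjusted p under 0.05. In all excitatory neuron-like nuclei the values were 3.65 to 10.06 and 5.17 to 22.67 CPM, with a log2 fold change of 0.94 ± 0.40 (unadjusted p = 0.029), beside 2.25% of genes. The value of 22.67 CPM was that of P301S Cgas+/+ replicate 3, and the other libraries of its group had at most 11.33 CPM. Of the 8 oligodendrocyte markers 6 were higher in each of these units at an unadjusted p, with summed levels of 106 to 168.6 against 117.7 to 199.1 CPM in CA1-like nuclei, and their part was not tested. In oligodendrocyte-like nuclei, where Neat1 was highest, it averaged 1445 ± 416 and 1800 ± 525 CPM, with overlapping ranges of 883.1 to 1932 and 1154 to 2460 CPM. These nuclei made up 17.8% ± 7.03 (SD) of kept nuclei in libraries labelled Cgas+/+ and 24.1% ± 5.29 in those labelled P301S Cgas+/+. The part of these shares in the Neat1 differences of other classes was not tested.

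**Figure D5:**
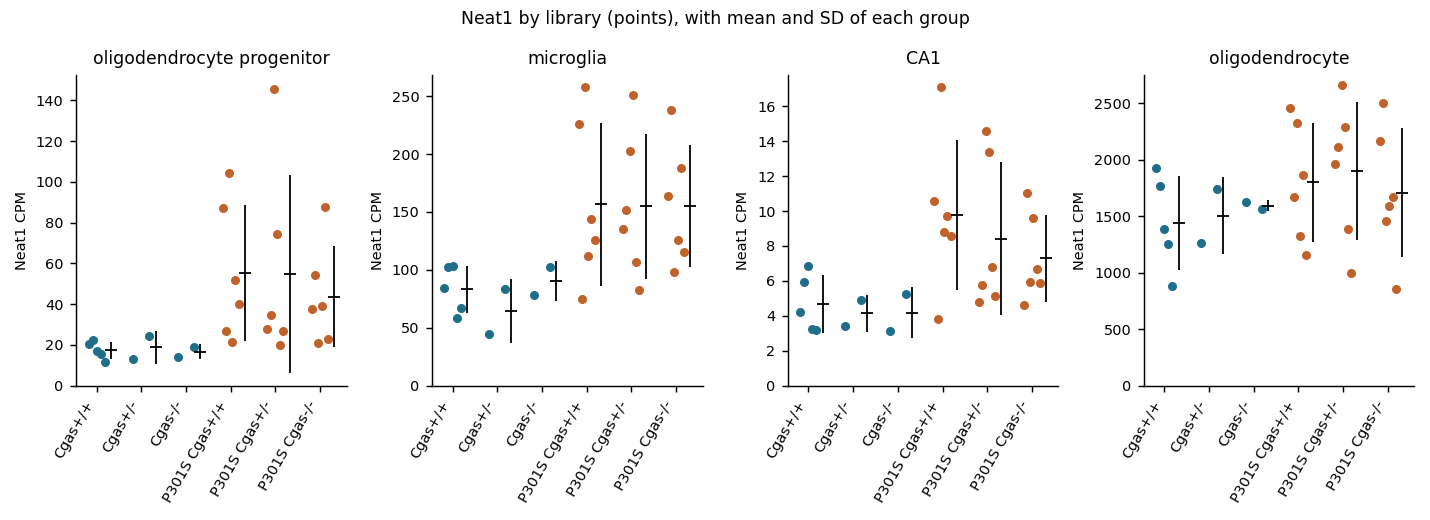
Neat1 level per library (points) in the 6 groups, in CPM, with mean and SD beside them, for oligodendrocyte progenitor-, microglia-, CA1- and oligodendrocyte-like nuclei. In the progenitor panel the libraries without P301S (blue) lie at 11.45 to 24.53 CPM and those with it (orange) at 19.8 to 145.7 CPM. The blue and orange sets were not balanced in header version or sex.

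Meg3, Snhg11 and Miat had negative log2 fold changes with tau in glial nuclei, some at an unadjusted p under 0.05 and none at an adjusted one, apart from Snhg11 and Meg3 in microglia-like nuclei with no filter on low counts (adjusted p = 0.00664 and 0.0369, edgeR). In astrocyte-like nuclei Snhg11 was 563.2, 373, 854.7, 750.4 and 602 CPM in libraries labelled Cgas+/+ and 270.5 to 565.7 CPM, with a median of 463 CPM, in those labelled P301S Cgas+/+ (log2 fold change -0.62 ± 0.23, unadjusted p = 0.01535, adjusted p = 0.31, edgeR). The 2 ranges overlapped. Meg3 and Miat gave -0.55 ± 0.24 and -0.44 ± 0.19 there, in a class where 11.8% of all genes had an unadjusted p under 0.05. Snhg11 in microglia-like nuclei gave -0.61 ± 0.25 (unadjusted p = 0.02345, adjusted p = 0.238). Miat gave -0.47 ± 0.19 in oligodendrocyte-like nuclei (adjusted p = 0.684, with 6.87% of genes under the unadjusted threshold) and -0.40 ± 0.14 in oligodendrocyte progenitor-like nuclei (adjusted p = 0.39).

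These differences came with those of the neuron-restricted genes. In astrocyte-like nuclei 7 of the 8 were lower with tau, with a median log2 fold change of -0.49, and 4 had an unadjusted p under 0.05. In oligodendrocyte-like nuclei 7 of 8 were lower (median -0.42) and in microglia-like nuclei 6 of 7 (median -0.51). In oligodendrocyte progenitor-like nuclei 5 of 7 were lower (median -0.26), 1 of them at an unadjusted p under 0.05. Their summed level in astrocyte-like nuclei was 452.2 to 1020 CPM in libraries labelled Cgas+/+ and 379.2 to 746 CPM in those labelled P301S Cgas+/+. Excitatory neuron-like nuclei made up 35.2% to 58.0% and 16.9% to 40.8% of the kept nuclei in these groups. The part of these values in the differences was not tested. Within the libraries of header version 3.0.2 (2 against 2) Snhg11, Meg3 and Miat in astrocyte-like nuclei differed by 0.03, 0.14 and 0.14, and within version 3.1.0 (4 against 3) by -0.95, -0.88 and -0.67, so the direction held in 1 of the 2 sets.

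In excitatory neuron-like nuclei no other member had an unadjusted p under 0.05 with tau. Meg3 was 7542, 5124, 9617, 8806 and 5107 CPM in libraries labelled Cgas+/+ and 4723 to 9110 CPM in those labelled P301S Cgas+/+ (log2 fold change -0.12 ± 0.17). Malat1 was 22970 and 26670 CPM in the libraries labelled Cgas+/+ of header version 3.0.2 and 13350, 17000 and 12100 CPM in those of version 3.1.0. It was 15380 to 23400 CPM in the libraries labelled P301S Cgas+/+, so the ranges of the 2 groups overlapped. Malat1 gave 0.12 ± 0.17, Miat -0.13 ± 0.14, Snhg11 -0.21 ± 0.18 and Rmst -0.50 ± 0.63, all with an adjusted p of 1 (edgeR). Within dentate granule-like nuclei, free of the mixture of subtypes, the lowest p belonged to Snhg11 (738.6 ± 66.3 against 608.2 ± 161 CPM, -0.28 ± 0.16, unadjusted p = 0.104, adjusted p = 1). In CA3-like nuclei it also belonged to Snhg11 (-0.31 ± 0.19, adjusted p = 1) and in inhibitory neuron-like nuclei to Neat1 (0.79 ± 0.43, adjusted p = 1). At an unadjusted p under 0.05 no member passed in inhibitory, dentate granule- or CA3-like nuclei, where 2.82%, 4.16% and 2.64% of genes did.

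Deletion of Cgas was tested within the transgene, P301S Cgas-/- against P301S Cgas+/+, and loss of 1 copy as P301S Cgas+/- against P301S Cgas+/+. Both contrasts and the tau contrast share the P301S Cgas+/+ libraries. No member passed in either contrast, and neither did any other gene (0% in each unit), except that 0.0078% of genes passed in inhibitory neuron-like nuclei with loss of 1 copy (edgeR). At an unadjusted p under 0.05 there were 203 to 2314 genes per unit, and DESeq2 called 0 to 118. In excitatory neuron-like nuclei the deletion gave 0.30 ± 0.17 for Snhg11 (2801 ± 767 against 2199 ± 765 CPM, unadjusted p = 0.092, adjusted p = 0.457, edgeR), 0.20 ± 0.16 for Meg3, -0.14 ± 0.16 for Malat1, 0.00 ± 0.13 for Miat, -0.39 ± 0.37 for Neat1 and 0.46 ± 0.62 for Rmst. The heterozygous contrast gave 0.26 ± 0.17, 0.11 ± 0.16, -0.07 ± 0.16, 0.00 ± 0.13, -0.23 ± 0.37 and 0.49 ± 0.63 in the same order. Without P301S Cgas+/+ replicate 3, the library with most Neat1 in its group, the Neat1 value of this contrast was 0.06. Adjusted p-values over these 12 values ran from 0.457 to 0.999.

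Dentate granule nuclei, low in Meg3 and Snhg11, were 2.80% to 57.7% of excitatory nuclei in libraries labelled P301S Cgas+/+ and 0.689% to 25.3% in those labelled P301S Cgas-/-. Within dentate granule-like nuclei the deletion gave -0.03 ± 0.13 for Meg3 and 0.06 ± 0.16 for Snhg11. The median log2 fold change of the 6 members under deletion was 0.005 in dentate granule-, 0.09 in CA1- and 0.19 in CA3-like nuclei. The part of the dentate granule shares in the excitatory values was not tested. Apart from the excitatory class as a whole, the lowest p of a member under deletion was that of Neat1 in CA1-like (-0.42 ± 0.32) and dentate granule-like nuclei (-0.37 ± 0.49). In CA3- and inhibitory neuron-like nuclei it was that of Rmst (1.74 ± 1.06 and -0.37 ± 0.34), where the CA3 value was -0.55 without P301S Cgas-/- replicate 2 and -6.77 with more doublets removed, as in microglia-like and oligodendrocyte progenitor-like nuclei (0.36 ± 0.40 and 0.38 ± 0.34). Miat came first in astrocyte- and oligodendrocyte-like nuclei (-0.27 ± 0.18 and -0.15 ± 0.18). For loss of 1 copy, Miat came first in CA1- and CA3-like nuclei (0.12 ± 0.15 and -0.29 ± 0.21) and in astrocyte-, oligodendrocyte- and oligodendrocyte progenitor-like nuclei (-0.17 ± 0.18, -0.19 ± 0.18 and 0.15 ± 0.14). Meg3 came first in dentate granule-like nuclei (-0.20 ± 0.13), Malat1 in inhibitory neuron-like nuclei (-0.15 ± 0.15) and Rmst in microglia-like nuclei (0.64 ± 0.40). All of these had an adjusted p of at least 0.786 (edgeR).

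The partners of these RNAs were followed as lists. None of the 9 paraspeckle proteins that join Neat1, of which 8 were tested in each unit, passed in any contrast, and their median log2 fold change with tau lay between -0.12 and 0.03 over the 9 units. The 13 nuclear speckle proteins, the company of Malat1, had medians from -0.12 to -0.05 with tau and from 0.01 to 0.12 with deletion, contrasts that share the P301S Cgas+/+ libraries, with 0 passing in either. All 13 were tested in each of the 9 units. With tau, 5 of these tests were lower and 0 higher at an unadjusted p under 0.05, a threshold that 2.25% to 15.7% of all genes passed. The 6 genes of the Dlk1-Dio3 domain other than Meg3 and Rian, of which 1 to 5 could be tested, had medians from -0.67 to 0.00 with tau and 0 passing, with 2 tests lower at an unadjusted p, both of Mirg. The value of -0.67 is that of Mirg alone in microglia-like nuclei, where the neuron-restricted genes had the median of -0.51 given above. Their part in it was not tested. Of 6 proteins known to bind Miat or Rmst, of which 5 to 6 were tested in each unit, 0 passed. Their medians with tau ran from -0.118 to 0.135, with 2 tests higher and 3 lower at an unadjusted p. Of 30 other long noncoding RNAs, Mirg again among them, 19 were in the files, 15 to 18 were tested in each unit and 0 passed. Medians of these RNAs with tau ran from -0.29 in microglia-like nuclei to 0.00, with 9 tests higher and 14 lower at an unadjusted p, and 5 of the 14 were in microglia-like nuclei. Over all genes tested, the median log2 fold change lay between -0.01 and 0.01 in each unit and contrast.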

How the data were processed

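Nuclei of frozen mouse hippocampi were sorted and sequenced with 10x Genomics 3′ v3 chemistry. The authors deposited raw UMI counts per gene and barcode for each library, made on mm10 with introns counted. The submitters' processing notes name Cell Ranger 3.1.0 and Seurat 3.0, while the file headers name version 3.0.2 in 12 libraries and 3.1.0 in 15. The named members, gene lists and comparisons were chosen with earlier results of these data known, and the thresholds for naming clusters were set after their markers were seen.

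Kept nuclei had 200 to 4000 detected genes and no more than 5% of UMIs from mitochondria, which removed 20030 barcodes over the gene limit and 627 over the mitochondrial limit. The gene limit acted unevenly, from 289 of 11770 barcodes in Cgas+/+ replicate 5 to 2066 of 9293 in P301S Cgas-/- replicate 2. It removes the nuclei with most genes, and its part in levels by depth or class was not tested. Doublets were scored per library with Scrublet in scanpy 1.11.5, and the highest-scoring 0.8% per 1000 barcodes were removed (17867 nuclei). Clusters (2000 variable genes without the members, 30 principal components, 15 neighbours, Leiden resolution 1) were named where at least 3 markers were found in 10% of nuclei with a log2 fold of 0.5. Of excitatory and inhibitory nuclei, 25.5% and 4.47% stayed without a subtype. A class was used in a library with at least 20 nuclei, and levels were compared as log2(CPM + 1).

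Genotypes were compared on counts summed per library with edgeR 4.0.16 (quasi-likelihood, TMM, filterByExpr, sex as covariate) in R 4.3.3, with DESeq2 1.42.0 as an alternative, and p-values were adjusted by Benjamini-Hochberg over all genes of a unit. The scripts were tested on simulated data. All members were described in every class. Fold changes were printed for all members in excitatory neuron-like nuclei and elsewhere for the member with the smallest p, and further ones (Neat1 in oligodendrocyte progenitor-like, Snhg11 in microglia-like, Meg3 and Miat in astrocyte-like and Meg3 and Snhg11 in dentate granule-like nuclei) were chosen after their values were seen. Similar genes were the 3 of highest r among genes reaching 10 CPM, of which 1 is not reported here. Each library is 1 mouse, and replicates were numbered in accession order.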

Additional observations from a re-analysis of the deposited data

Results flagged for a closer look

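Of 96 groups of 4 to 6 libraries tested, 8 held a library far from the others by Dixon's criterion, and chance gives about 1 in 20 groups. In the group labelled P301S Cgas-/-, replicate 1 had the highest Malat1 in excitatory neuron-like nuclei (25610 CPM, others 15390 to 19000) and in inhibitory ones (22520 CPM, others 13980 to 16150), and the highest Rmst in inhibitory ones (18.13 CPM, others 2.944 to 8.53). Replicate 4 of that group had 15.01 CPM of Neat1 in inhibitory neuron-like nuclei (others 6.717 to 9.19).

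P301S Cgas+/+ replicate 3 had 22.67 CPM of Neat1 in excitatory neuron-like nuclei (others 5.168 to 11.33). P301S Cgas+/- replicate 5 had 251.3 CPM of Rmst in excitatory neuron-like nuclei (others 77.79 to 127.2). Among libraries labelled Cgas+/+, replicate 3 had 15.83 CPM of Rmst in CA3-like nuclei (others 1.703 to 4.214), and replicate 5 had the lowest Snhg11 in dentate granule-like nuclei, at 620.8 CPM (others 759.1 to 776.6).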

How the results depend on the processing

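Log2 fold changes of all members in excitatory neuron-like nuclei, and elsewhere of the member with the smallest p, were recomputed under the alternatives. Of the recomputed values, 1310 kept their direction and their side of the threshold, 16 changed direction and 2 passed the threshold, both of Neat1 in microglia-like nuclei. Snhg11 and Meg3 in microglia-like nuclei were not part of this count. All 498 recomputed mean levels moved by less than 1 SD. With no filter on low counts, 3 members passed in microglia-like nuclei for the tau contrast, and leaving out 1 library at a time gave 0 to 1, with 1 (Neat1, log2 fold change 1.10, adjusted p = 0.0437, edgeR) without P301S Cgas+/+ replicate 2; over all its alternatives the Neat1 value stayed above 0. Over all genes, the tau contrast called 158 genes in astrocyte-like and 233 in microglia-like nuclei with DESeq2 (1 and 0 with edgeR), and 801 in microglia-, 116 in oligodendrocyte progenitor- and 110 in CA3-like nuclei with no filter (0, 1 and 1 with it). Against 0 each, DESeq2 called 63 with deletion and 118 with loss of 1 copy in excitatory neuron-like nuclei, and the fit with no filter 217 and 298 in CA3-like nuclei. The log2 fold change of Rmst with deletion in CA3-like nuclei was -6.77 with more doublets removed and ran from -0.5507 to 2.574 when 1 library was left out. With 1 library left out, values in excitatory neuron-like nuclei crossed 0 for Meg3 (-0.2242 to 0.009737) and Malat1 (-0.002005 to 0.2503) with tau, for Miat with deletion (-0.05218 to 0.09045), and for Miat (-0.05602 to 0.07965), Malat1 (-0.1147 to 0.002385) and Neat1 (-0.6207 to 0.06148) in the heterozygous contrast. The correlation of Malat1 with Neat1 in oligodendrocyte-like nuclei was 0.4603 over the 18 P301S libraries alone (permutation test, adjusted p = 0.1096). The causes were not tested. No paired analysis was possible because the labels carry no replicate numbers that link mice across groups.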
